A study of Mus musculus with 2 samples.

Results

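Long introns are described here as they were spliced in the liver of the mouse embryo. A member was an intron of the reference annotation longer than 50000 nt on the mm9 build whose splice junction carried at least 5 reads in each of 2 replicate counts, and 1020 of the 914099 junctions in the deposited file met that rule. They were 0.826% of the 123511 annotated junctions with that minimum of reads, and 20.7% of the 4934 introns of this length in the annotation. Members were chosen by intron length and by both read counts, so these values, and the differences between the counts, are given as a description.

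The study sequenced polyadenylated RNA, as stranded paired-end libraries, from the liver of C57BL/6J embryos at 14.5 days of gestation. Its 2 biological replicates form 1 group, of pooled sex and from littermates, with no treatment or mutation named, and the number of litters is not given. There is no second group, so the comparisons possible are between the replicates, between the members and shorter introns, and among the members. The first read count of each junction is called R1 and the second R2; the sources used here do not say which library replicate each belongs to.

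At this age the liver is the main site of blood formation, and red cell precursors fill it between hepatoblasts, sinusoidal endothelium, stellate cells and a minority of white cells and megakaryocytes. A pre-mRNA intron is removed by the spliceosome, which joins the exon at its 5′ end, the donor side, to the exon at its 3′ end, the acceptor side, and a read across the joined exons is the record of that event. RNA polymerase has to transcribe the whole intron before its acceptor exists, and in mammals first introns are often the longest of a gene. Genes with very long introns are known mainly from neurons and muscle, but they also include enzymes, signalling proteins and scaffold proteins that many tissues use.

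The sequences that these junction reads span are short, because the intron itself is absent from them. The mRNA across the join is shown for leading members, 15 bases from each exon, read from GENCODE M21 transcripts (GRCm38) that matched the mm9 model by transcript identifier, exon number and exact intron length. The intron positions are mm9. Capitals mark the last 3 bases of the upstream exon and the first base of the downstream exon. Members among those with most reads are shown first, since such introns carry much of the signal.
Gpc3 chrX:49782312-49935973: ctgcggttttccAAGAggcctttgaaattg
Gpc3 chrX:49668174-49718898: aagcacattaacCAGCtcctgagaaccatg
Raly chr2:154617285-154683004: cagacctcggcgCGGGtgaacaccatgtcc
Adk chr14:21989101-22054054: atgaaagtggctCAGTggttgattcaggag
Epb41 chr4:131563337-131631094: tcctgtgcagccCAGAgaagagtttagcgg
Mrps28 chr3:8802415-8899985: agatgtggatggCGAGaaataccagagggg
Prim2 chr1:33590209-33685239: tctaaggctttgGCACtaacggccaggtcg

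Among the longest members the same 30 bases of mRNA stand for the removal of a far longer intron, and these joins are shown because each spans one of the longest distances in the set.
Grip1 chr10:118891479-119334770: aggagcaggagaGAGAtgagagtccctaca
Magi1 chr6:93893315-94233003: aagccgtcagacAAGGaggaaggctcaaca
Smyd3 chr1:181024534-181335413: gaagcctttgcaAAAGtgatctgcaattcg
Cmss1 chr16:57323657-57606778: ccgccagcagccCAGAgcaatcaggtggtg
Slc25a21 chr12:58029301-58297859: ccggagggtctgCAGGtcttgtagaaattt

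A matching transcript was found for 961 members. Of these, 544 (56.6%) had AG as the last bases of the upstream exon, against 55.0% to 57.0% in the shorter length classes. G as the first base of the downstream exon was found in 453 (47.1%), against 48.2% to 50.4% in the shorter classes. The joins of long introns thus had about the same exon ends as those of short introns. In the 908 members with a coding transcript, the intron lay in the coding part in 750 (82.6%), in the 5′ UTR in 149 (16.4%) and in the 3′ UTR in 9. Among introns of up to 1 kb, 94.4% lay in the coding part and 3.28% in the 5′ UTR. Those of 20 to 50 kb were close to the members, with 80.0% and 19.0%. Inside coding parts, 38.4% of members split a codon after its first base (phase 1), against 30.1% of introns of up to 1 kb. The share between codons was 44.0% of members, against 47.4%. In introns of 20 to 50 kb these shares were 34.6% and 44.8%.

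Reads on the members were unevenly spread. R1 had a median of 39 reads and R2 a median of 21, and the lowest value was 5 in both. In all the members held 95334 R1 reads and 54393 R2 reads, 0.131% and 0.102% of the reads on annotated junctions. Only 110 members had 100 reads or more in both counts, and 761 had 10 or more. The deposited irreproducible discovery rate (IDR), the authors' measure of how poorly replicates agree on a junction, was at most 0.05 for 1000 members and reached 0.306. Assembly of transcripts without the annotation, done by the authors, had placed the same intron in 866 members (84.9%).

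Gpc3, an X-linked cell surface proteoglycan of fetal hepatoblasts, held 2 members that were among those with most reads. The second intron of the gene, 153662 nt long, carried 3652 R1 and 2305 R2 reads. The sixth, 50725 nt long, carried 3170 R1 and 1305 R2 reads. Both stayed near the level of the other Gpc3 junctions, with ratios between 0.595 and 1.29. Gpc3 itself had 173 TPM (the deposited transcript abundance, scaled for length and depth) in library replicate 1 and 133 TPM in replicate 2.

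Raly, an RNA-binding protein of the hnRNP group, had 1366 R1 and 434 R2 reads on its first intron of 65720 nt. Here the long intron was one choice among several, since it took 33.2% of R1 and 37.5% of R2 reads at its donor, and 35.0% of R1 and 14.4% of R2 reads at its acceptor. March3, a membrane ubiquitin ligase, had 1178 R1 and 337 R2 reads on its first intron of 113231 nt. Adk, adenosine kinase, held 4 members between 50887 and 77441 nt, each with 774 to 982 R1 and 378 to 567 R2 reads. Within Adk the highest and the lowest of these differed less than R1 and R2 did before scaling. The size used for scaling, depth adjusted by a trimmed mean over annotated junctions, was in R1 1.73 times that in R2. Unadjusted, annotated junctions held 72939035 reads in R1 and 53301084 in R2. Epb41, the membrane skeleton protein 4.1 of red cells, had 906 R1 and 578 R2 reads on a first intron of 67758 nt. Mrps28, a protein of the mitochondrial ribosome, had 969 R1 and 420 R2 reads on a last intron of 97571 nt.

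**Figure D1:**
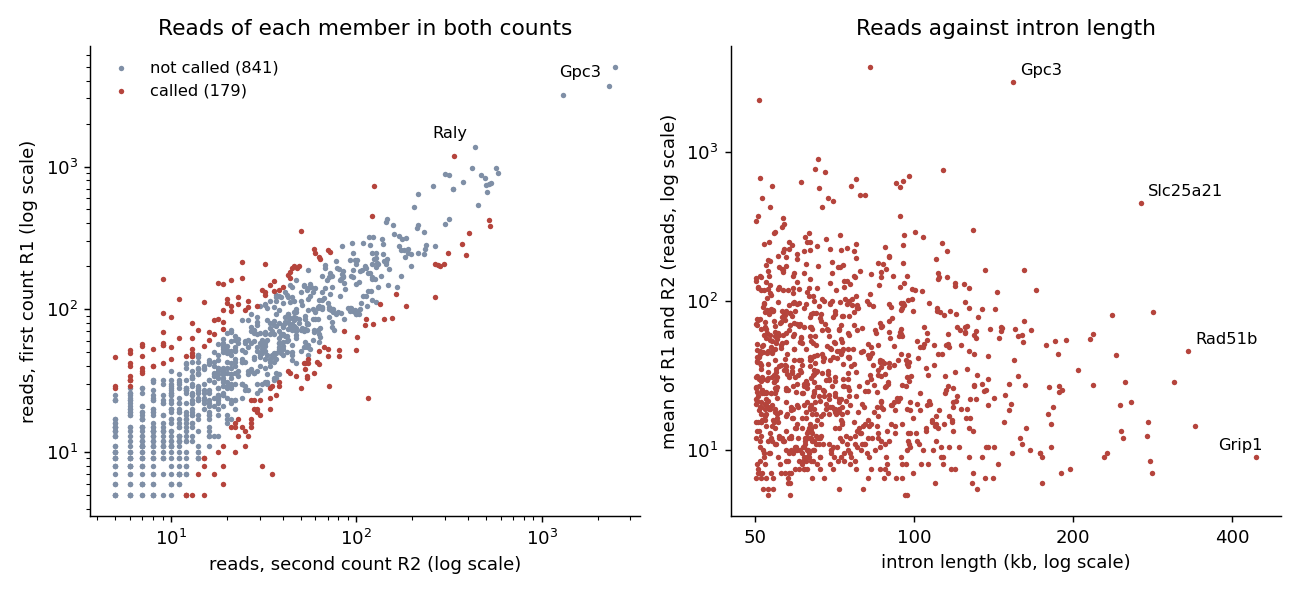
Left, reads of each of the 1020 members in R1 (vertical) against R2 (horizontal), both on log scales, with the 179 past an adjusted p of 0.05 and a 2-fold difference between the counts in red and the 841 others in grey. Right, mean of R1 and R2 (log scale) against intron length in kb (log scale). The Gpc3 introns stand near the top with 3652 and 3170 R1 reads, and reads show no slope with length.

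Most of the 10 longest members, but not all, had a mean of R1 and R2 under the median of the set, 31 reads. The median length was 69455 nt, 206 members exceeded 100 kb, 23 exceeded 200 kb and 4 exceeded 300 kb. Grip1, a scaffold protein for glutamate receptors, had the longest at 443292 nt, with 11 R1 and 7 R2 reads. Magi1, a scaffold of cell junctions, followed with 339689 nt and 13 R1 and 16 R2 reads. Rad51b, which acts in repair by homologous recombination, had 330419 nt with 54 R1 and 38 R2 reads. Smyd3, a lysine methyltransferase, had 310880 nt with 39 R1 and 18 R2 reads. Slc25a21, a mitochondrial carrier of oxodicarboxylates, stood out among the 10 longest with 385 R1 and 528 R2 reads on a first intron of 268559 nt. The other members among the 10 longest lie in Cmss1, Auts2, Sox5, Camkmt and Sugct, and their R1 ran from 5 to 150 and their R2 from 6 to 19. Over all members, length and mean reads had a Spearman coefficient of -0.04, as a description over 1020 introns that share libraries and, in part, genes.

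The threshold on length fell in a dense part of the distribution. Just inside it lay Rabgap1l at 50017 nt with 104 R1 and 36 R2 reads, and just outside it lay Xxylt1 at 49979 nt with 72 R1 and 48 R2 reads. At the threshold on reads, 58 members had 5 reads in the lower count, among them Gna14 with 5 and 5. A further 96 annotated introns of this length had 4 in the lower count, among them Arhgap18 with 67 and 4.

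The members lay in 726 host genes, 717 of them protein-coding. A single member was found in 527 host genes, and 199 held 2 or more, so the 1020 introns are not independent of one another. Dpyd, the first enzyme of pyrimidine breakdown, held most with 8. Its members ran from 52256 to 97202 nt, 560246 nt in all, with 23 to 40 R1 and 7 to 38 R2 reads each. Rbms3, an RNA-binding protein, held 6 members with 10 to 23 R1 and 6 to 22 R2 reads. Cpq, a carboxypeptidase of blood plasma, held 5 with 83 to 222 R1 and 36 to 145 R2 reads. The Cpq introns lay above the median of 39 R1 reads of the whole set and the Rbms3 introns below it. Slc39a11, Exoc4, Ptprk, Slc9a9 and Cdkal1 also held 5 each.

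Host genes were expressed at a low to moderate level. The median was 3.41 TPM in library replicate 1 and 2.79 TPM in replicate 2 over 724 host genes. The 11974 other genes with a qualifying annotated junction had medians of 7.12 and 5.90 TPM. A level of at least 1 TPM in both libraries was reached by 584 host genes (80.7%), against 83.3% of the other genes. At 10 TPM the shares parted, with 100 host genes (13.8%) against 35.7% of the others, and at 100 TPM only 4 host genes remained, among them Raly, Gpc3 and Epb41. The 1491 genes with an annotated intron over 50 kb but no member were at a median of 0.09 TPM in both libraries. A gene without junction reads could not enter the set, so the read minimum acts on this contrast. Mean reads per member and host TPM had a Spearman coefficient of 0.707 over 1017 members, as a description.

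The labelled tissue matched its markers. All 12 erythroid and all 12 hepatocyte markers were at 10 TPM or above in both libraries, among them Slc4a1, the anion exchanger of red cells, at 547 and 625 TPM, and Alb, albumin, at 10324 and 8911 TPM. None of 12 neural and muscle markers reached 1 TPM. Alpha globin Hba-a2 took 20.3% of all TPM in replicate 1 and 35.6% in replicate 2, and every other TPM is relative to that total. In a bulk tissue, fewer cells of a type and less RNA per cell cannot be told apart.

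Among the lineage lists, genes of red cells and of liver cells gave most reads on long introns. The lists were chosen with earlier results of these data known, overlap one another, and are described by counts alone. Of all 2217 genes with an annotated intron over 50 kb, on a list or not, 726 hosted members. On the erythroid list 11 of the 15 genes with an annotated intron over 50 kb hosted members, 15 introns with 7108 R1 and 3903 R2 reads. The median erythroid member had 88 R1 and 46 R2 reads. Sox6, a repressor of embryonic globin, held 3 members with 320 R1 and 153 R2 reads in sum. Bcl11a, which silences fetal-type globin in human red cells, had 258 R1 and 181 R2 reads on an intron of 72602 nt. Sptb, the beta spectrin of the red cell skeleton, had 244 R1 and 140 R2 reads in all.

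In some erythroid host genes the long first intron was a minor choice. Abcg2, a membrane transporter of porphyrins and drugs, had 64.1 and 48.8 TPM but only 53 R1 and 19 R2 reads on its first intron of 58529 nt. That intron took 4.21% of R1 and 4.03% of R2 reads at its acceptor, and its reads were 0.0513 (R1) and 0.0337 (R2) of the median junction of the gene. A second Epb41 member of 63189 nt had 11 R1 and 8 R2 reads, 0.0117 and 0.0147 of the gene's median junction. Erythroid genes with an annotated long intron but without a member included Ank1, ankyrin 1, at 66.2 and 53.2 TPM, and Tfdp2, a partner of E2F factors, at 41.9 and 39.2 TPM.

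On the hepatocyte list 11 of 20 such genes hosted 22 members, with 7918 R1 and 4274 R2 reads. Gpc3 supplied 6822 of the R1 reads and 3610 of the R2 reads. The median hepatocyte member had 35 R1 and 21 R2 reads. Medians were 45 and 19 on the leukocyte list, and 37 and 19 on the stem and progenitor list. Apart from it the levels were modest. Ghr, the growth hormone receptor, held 2 members with 202 R1 and 126 R2 reads in sum. Lipc, hepatic lipase, had 172 R1 and 136 R2 reads on a first intron of 110912 nt, 0.369 and 0.410 of the median junction of its gene. Tcf7l2, a transcription factor of the Wnt pathway, held 3 members with 154 R1 and 78 R2 reads in sum.

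The supporting cell types of the liver gave more host genes and fewer reads in sum. On the stellate and mesenchymal list 25 of 48 genes hosted 47 members, with medians of 21 R1 and 14 R2 reads. Ptn, a heparin-binding growth factor, led that list with 201 R1 and 46 R2 reads. Reln, an extracellular protein made by stellate cells, held 3 members with 156 R1 and 149 R2 reads in sum. On the endothelial list 13 of 23 genes hosted 18 members, with medians of 25 R1 and 20.5 R2 reads. St6galnac3, a sialyltransferase, led with 82 R1 and 29 R2 reads on an intron of 215547 nt, and Fli1, an ETS factor of endothelium and megakaryocytes, had 49 R1 and 37 R2 reads.

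Blood lineages other than the red cell differed in how many long introns their genes have at all. The leukocyte list had 15 host genes among 20 with a long intron, led by Elmo1, a regulator of Rac in cell migration, with 97 R1 and 92 R2 reads, and by Celf2, an RNA-binding splicing regulator, with 153 R1 and 18 R2 reads. The megakaryocyte list had 7 of 8, led by Rab27b, a GTPase of granule secretion, with 57 R1 and 18 R2 reads. The stem and progenitor list had 10 of 18, led by Bcl11a and by Msi2, an RNA-binding protein of blood stem cells, with 291 R1 and 95 R2 reads. The lymphoid list had 7 of 20, led by the Src-family kinase Fyn with 322 R1 and 123 R2 reads. On the macrophage list only the sodium and proton exchanger Slc9a9 hosted members, 5 introns with 10 to 36 R1 and 10 to 27 R2 reads. The other 4 genes with a long intron had none, at medians of 6.61 and 5.5 TPM against 1.06 and 0.89 TPM for Slc9a9. Among these 4, Frmd4b fell just short of the read minimum, with 34 R1 and 4 R2 reads on an intron of 64068 nt. The granulocyte and mast cell list had no gene with an annotated intron over 50 kb, although 42 of its 48 genes had a qualifying junction.

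Of the lineage lists, that of neural and muscle genes held most genes with long introns, 86, of which 6 hosted a member. Tenm3, a transmembrane teneurin, led with 22 R1 and 18 R2 reads on an intron of 137907 nt. Dlg2, a postsynaptic scaffold protein, held 3 members with 24 R1 and 25 R2 reads in sum at 0.23 and 0.18 TPM. The 80 neural and muscle genes with long introns but no member had medians of 0.04 and 0.05 TPM.

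Of the lists, that of broadly used genes held most host genes, but it was also the longest list, with 215 genes. On the list of general cell machinery 103 of 124 genes with a long intron hosted 188 members, with medians of 43 R1 and 26.5 R2 reads. Chchd3, a subunit of the mitochondrial cristae complex, had 889 R1 and 300 R2 reads on an intron of 75825 nt. Ssbp3, a single-strand DNA binding protein and transcription cofactor, had 659 R1 and 506 R2 reads on an intron of 93949 nt. Babam2, a subunit of the BRCA1-A complex, held 4 members with 1359 R1 and 868 R2 reads in sum. Of genes at chromosomal fragile sites, 20 of 41 hosted 43 members, led by Mad1l1, a spindle checkpoint protein, with 286 R1 and 370 R2 reads. In all, 100 host genes stood on a lineage list and 524 on none of the lists.

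**Figure D2:**
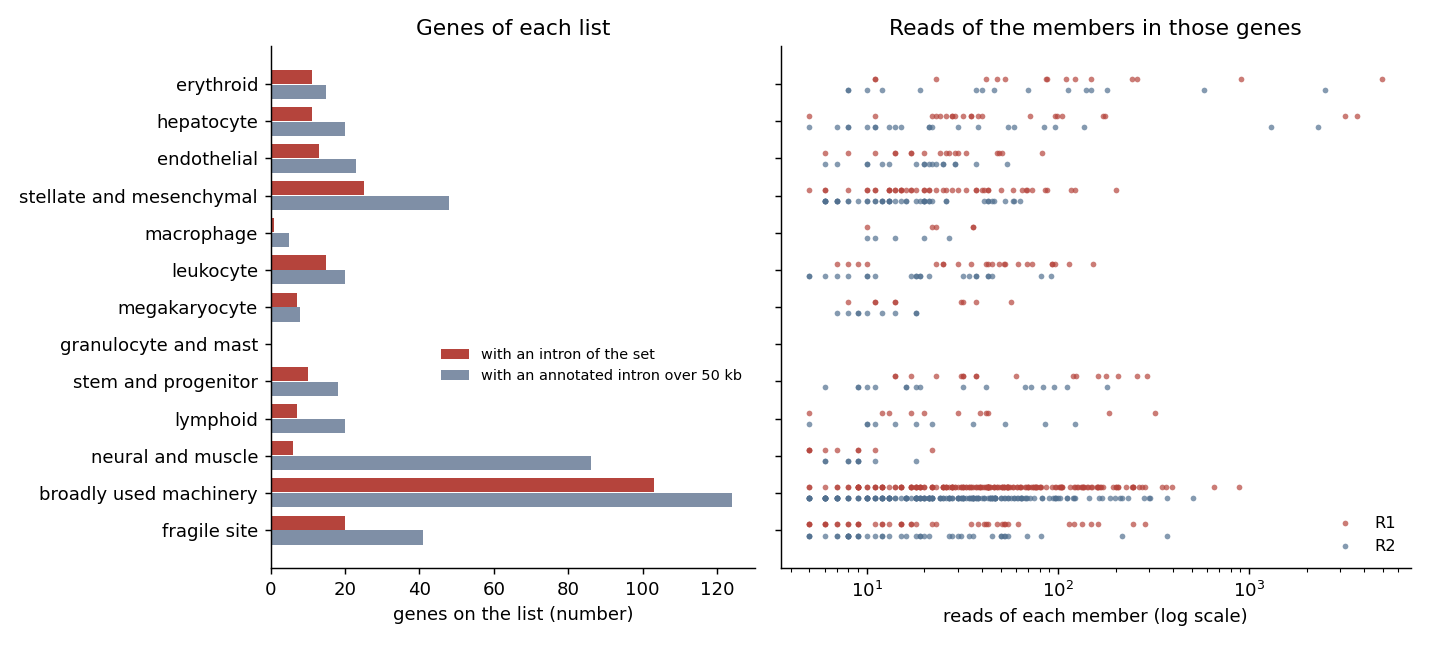
Left, number of genes on each list with an intron of the set (red) and with any annotated intron over 50 kb (grey). Right, reads of each member in those genes on a log scale, R1 in red and R2 in blue. Hepatocyte genes reach 3652 R1 reads, while 6 of 86 neural and muscle genes appear at 22 R1 reads or fewer.

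Long introns stood at the start of genes more often than short ones. Of the members, 473 (46.4%) were the first intron of at least 1 annotated transcript, 430 were internal and 117 were last. First introns made up 16.8% of introns of up to 1 kb, 16.3% of those of 1 to 5 kb, 28.0% of those of 5 to 20 kb and 43.3% of those of 20 to 50 kb. Judged by the transcript with most exons alone, the share was 34.7% of members, and the order over the shorter classes was 5.13%, 6.88%, 18.8% and 33.3%. Position was read from the gene models and not from the RNA.

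Within their genes, junctions of long introns carried fewer reads than other junctions. For the 941 members with at least 3 other qualifying annotated junctions in the gene, the median ratio to the median of those others was 0.769 in R1 and 0.770 in R2. The class medians ran from 1.03 (R1) and 1.04 (R2) for introns of up to 1 kb, through 1.00 in both for 1 to 5 kb and 0.913 and 0.889 for 5 to 20 kb, to 0.800 and 0.778 for 20 to 50 kb. Position and site choice moved with the ratio. First members had medians of 0.634 (R1) and 0.636 (R2), internal members 0.867 and 0.881, and last members 1.02 and 1.00. For first introns of up to 1 kb the medians were 0.970 and 0.944, and for those of 20 to 50 kb 0.691 and 0.630.

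The members whose splice sites served nearly no other junction gave a different picture. When the intron took at least 90% of the reads at its donor and at its acceptor in both counts, the median ratio over 528 members was 0.927 in R1 and 0.915 in R2. The internal ones among them, 267 introns, had medians of 1.00 in both counts, and the 202 first introns had 0.779 and 0.808. The other 413 members had medians of 0.571 and 0.535. Introns of up to 1 kb with such exclusive sites had medians of 1.08 and 1.10, and those without had 0.601 and 0.571. Introns of 20 to 50 kb were close to the members, with 0.930 and 0.918 for exclusive sites and 0.591 and 0.556 without.

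**Figure D3:**
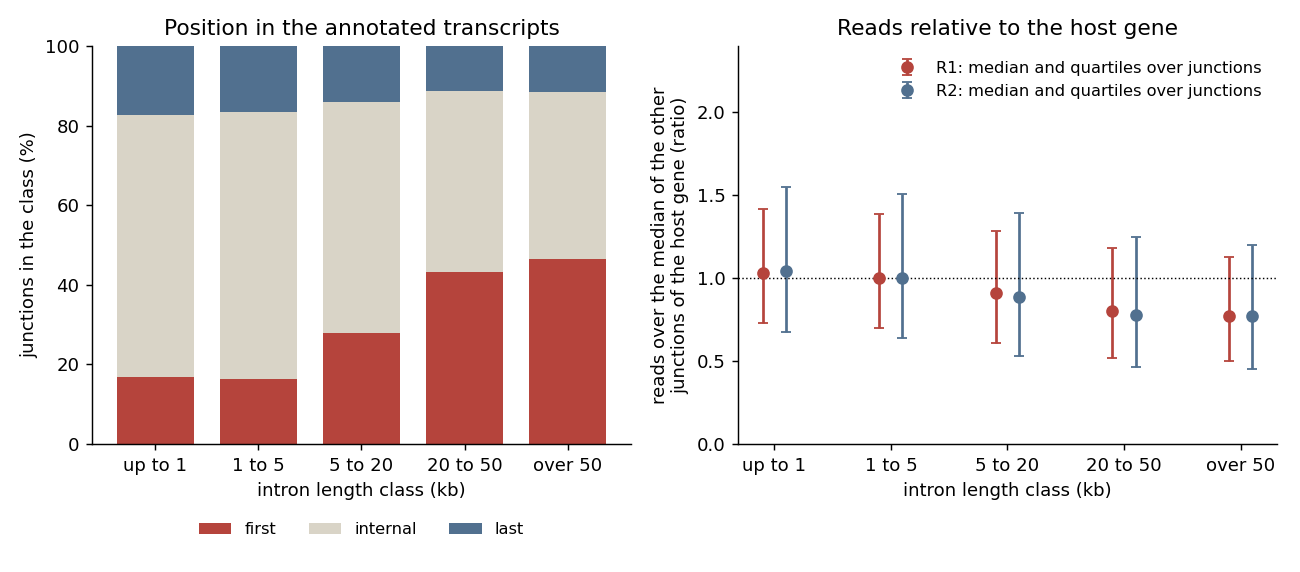
Left, share of first, internal and last introns in each length class. Right, reads of a junction over the median of the other annotated junctions of its host gene, with points for medians and bars for the quartiles over junctions, R1 in red and R2 in blue. The share of first introns is 46.4% in the class over 50 kb, and the median ratio there is 0.769 in R1 and 0.770 in R2.

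Single members ranged widely in this ratio. Umad1 had the highest R1 ratio, 11.1, on its last intron of 53003 nt with 189 R1 and 107 R2 reads. Cers6, a ceramide synthase, had the highest R2 ratio, 9.58, with 24 R1 and 115 R2 reads. Znrf1, a ubiquitin ligase, had 4.34 in R1 and 3.24 in R2. At the low end lay the second Epb41 member, a second Raly member at 0.0141 and 0.0150, Fam49b at 0.0178 and 0.0321, Cnot2 at 0.0282 and 0.0299, and Abcg2. The 5 lowest were all first introns of an annotated transcript in genes with at least 14.7 TPM. A member needs at least 5 reads in each count, so ratios this low can arise only in genes whose other junctions have many reads. Nothing is read from the TPM of these genes. In both counts 160 members (17.0%) were under 0.5, and 20 were under 0.1.

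Splice sites of the members were shared with other junctions more often than those of short introns. The member took at least 90% of donor reads in both counts in 738 cases (72.4%), against 91.6% of introns of up to 1 kb. At the acceptor the counts were 694 (68.0%) against 92.6%. In introns of 20 to 50 kb these shares were 76.4% at the donor and 71.1% at the acceptor. Fewer than 50% of acceptor reads in both counts went to the member in 93 cases (9.12%, against 2.38%, and 6.88% at 20 to 50 kb). Fewer than 50% of donor reads did so in 47 cases (4.61%, against 2.56%). At the donor this share was 4.65% at 20 to 50 kb, about the same as in the members. Junctions absent from the annotation took over 5% of donor reads in 223 members (21.9%) and over 5% of acceptor reads in 230 members (22.6%). In introns of up to 1 kb these shares were 5.38% and 4.39%, and in those of 20 to 50 kb 17.2% and 18.8%. Depth moved with these shares, with a median R1 of 39 for members and 128 for introns of up to 1 kb, and its part in them was not tested.

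The deposited contigs, stretches of continuous read coverage that the authors listed once for the series, lay inside nearly every member on the strand of its gene. Contigs that overlapped no annotated exon and lay wholly inside the intron were counted. The contig file lists nothing beyond a certain end on several chromosomes, and 30 members past it were left out. Of the other 990 members, 988 held at least 1 contig on the strand of the gene. Sense contigs numbered 66.9 per 100 kb and antisense contigs 4.32 per 100 kb. In the median member sense contigs covered 31.6% of the intron. Introns of 20 to 50 kb were close, with 65.9 sense and 5.27 antisense contigs per 100 kb and a median sense cover of 34.1%. A sense contig lay in 98.05% of them. Among the members, cover ranged up to 94.0% and, as a description, had a Spearman coefficient of 0.580 with host TPM over 987 members.

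That intronic cover was lower towards the 3′ end. Each intron was cut into 10 equal bins, numbered from its 5′ end. Sense contigs covered 44.5% of bin 2 on average, 37.8% of bin 5 and 22.2% of bin 10. Antisense contigs covered between 0.794% and 1.27% in every bin. Bins 1 to 5 were covered more than bins 6 to 10 in 810 of 990 members (81.8%), and less in 178. The mean cover was 41.3% over bins 1 to 5 and 29.4% over bins 6 to 10. Introns of 20 to 50 kb had 38.9% and 33.9%, with bins 1 to 5 covered more in 62.6% of them. In the 196 members over 100 kb the cover was 49.1% in bin 2 and 17.9% in bin 10. Contigs that overlap an exon were left out, so bins 1 and 10 lack those that run out of or into one. The mean of bin 1 was 39.2%, and that of bin 9 was 26.3%, before the 22.2% of bin 10. In introns of 20 to 50 kb bins 9 and 10 had 33.9% and 25.8%. The part of this filter in the value of bin 10 was not tested. First introns were covered more than internal ones throughout, 50.05% against 39.2% in bin 2 and 24.5% against 18.7% in bin 10.

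Single introns varied around this slope. In the second Gpc3 intron the cover was 84.0% over bins 1 to 5 and 72.9% over bins 6 to 10. In the fourth Adk intron, of 64954 nt, it was 90.4% and 65.9%. The Slc25a21 intron of 268559 nt was covered evenly, at 88.8% and 88.5%. The Bcl11a intron ran the other way, at 38.3% and 83.3%. The 5 Cpq introns were covered at 3.35% to 20.6% and the 8 Dpyd introns at 1.29% to 9.93%, although both genes had junction reads in each. Contigs have no value per replicate, so no spread can be given for these shares.

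**Figure D4:**
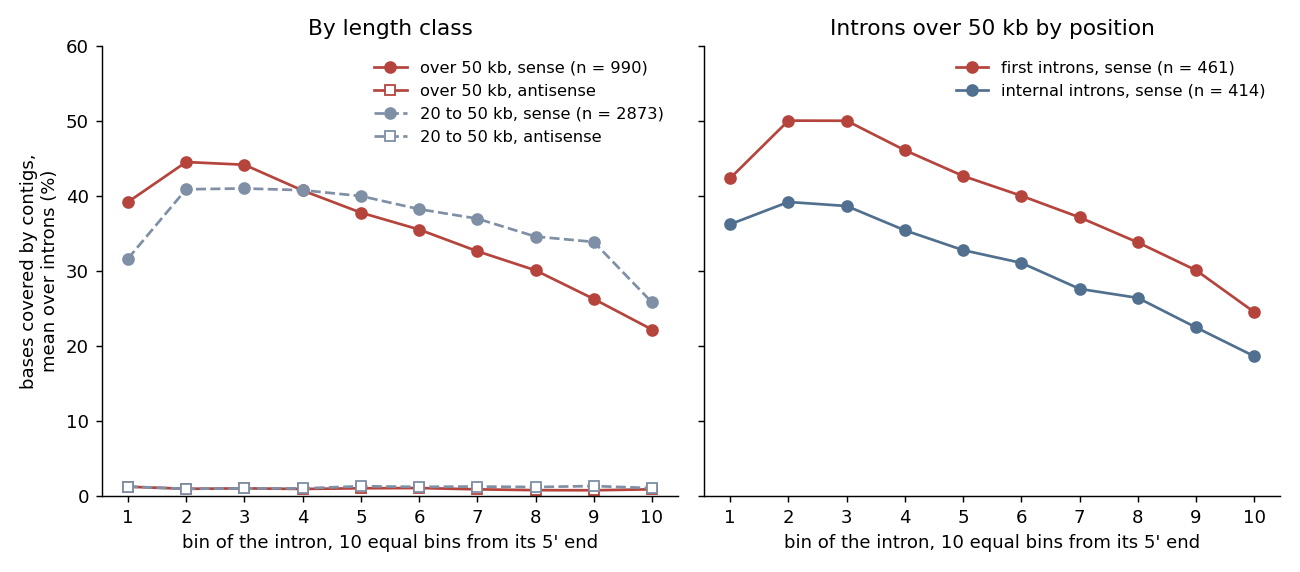
Mean share of bases covered by contigs in each of 10 equal bins of the intron, numbered from its 5′ end. Left, introns over 50 kb (n = 990) and of 20 to 50 kb (n = 2873), sense as filled circles and antisense as open squares. Right, sense cover of first and internal members. Sense cover of the members is 44.5% in bin 2 and 22.2% in bin 10, while antisense cover is at most 1.27%.

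R1 and R2 are set side by side here for each member, as a description, since both counts chose the members and introns with 1 low count were left out by the rule. Each annotated junction with at least 10 reads was tested for a difference between R1 and R2 beyond the trimmed-mean sizes used for scaling. It was called at an adjusted p under 0.05 with at least a 2-fold difference. Of 133087 junctions 17.8% were called, 10.1% with R1 higher and 7.69% with R2 higher. Of the 1020 members 179 (17.5%) were called, 92 higher in R1 and 87 higher in R2. Among all annotated junctions with 5 reads in each count 16.5% were called, 8.89% with R1 higher and 7.62% with R2 higher; nothing is read from the members' share beside these. When depth was taken from the total of annotated junction reads instead, 208 members were called, 170 of them higher in R1, and the median of all junctions moved to 0.34 on the log2 scale. What is compared are libraries of 1 group, not conditions, and p-values cover counting error only.

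A few of the members past both limits are given with their reads. Rab8b, a GTPase of vesicle transport, had 162 R1 and 9 R2 reads, a scaled log2 ratio of R1 to R2 of 3.31. Parva, an actin-binding partner of integrin-linked kinase, had 94 R1 and 9 R2 reads (log2 2.52). Both are first introns, and the TPM of Rab8b was 19.6 in replicate 1 and 14.8 in replicate 2. In the other direction Adcy5, an adenylate cyclase, had 7 R1 and 35 R2 reads (log2 -3.03). Cers6 had 24 R1 and 115 R2 reads (log2 -3.03). Wwc2, a regulator of the Hippo pathway, had 8 R1 and 31 R2 reads (log2 -2.68).

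Over the whole set R1 and R2 went together, with a Spearman coefficient of 0.833 and a Pearson coefficient of 0.854 on log2 reads, as a description over 1020 introns of the same libraries. Members with many reads varied in this too. On the log2 scale after scaling, R1 over R2 was 1.01 for March3, 0.86 for the first intron of Raly, and 0.49 for the sixth intron and -0.13 for the second intron of Gpc3. The fourth Adk intron stood at 0.00. March3 was past both limits, and the other members in this comparison stayed under the 2-fold limit.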

How the data were processed

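Per the file values and the deposited note, the junction file on mm9 gives a count of reads for each junction, R1 and R2 in the name field, whose sum equals the deposited total on every line, a flag for annotated introns and an IDR that behaves like a p-value. The flag matched an intron of the deposited Ensembl models on all 168883 lines that carry it and on no other. No source used here names the aligner or the contig caller. The authors deposited 1 contig list with a coverage signal, of which positions alone were used. Gene TPM and expected counts on mm10 were deposited per library, per the file headers; expected counts were not tested. The RPKM values on mm9 are the authors' own.

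Members were taken by the stated rule. Total junction reads were 87568498 in R1 and 66913746 in R2. R1 and R2 were compared by a 2-sided exact conditional binomial test with 0.5 added to each count for fold changes, with trimmed mean sizes from edgeR 4.0.16, DESeq2 1.42.0 size factors as an alternative, in R 4.3.3 and scipy 1.17.1, with Benjamini-Hochberg adjustment over all annotated junctions with at least 10 reads. The procedure was tested on simulated data. The smallest p of an exact sign test over 2 replicates is 0.5. The labels do not say that the replicates came from separate litters, so p-values measure only the difference between these samples. No molecular identifiers were used.

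The members and the gene lists were chosen with earlier results of these data known. Named are the 10 members with most reads, the 10 longest, up to 3 leading members of each list, the 3 host genes with most members, the 5 on each side of each threshold, the 3 largest replicate differences each way, and the 5 highest and lowest ratios; of those at the thresholds the nearest are printed. Some of these members are not reported here. Other genes named were chosen after their values were seen. Position is that in any annotated transcript, first before last. The share at a splice site is the member's percent of the reads of all junctions with that donor or acceptor.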

Additional observations from a re-analysis of the deposited data

How the results depend on the processing

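The 1020 members became 1496 over 40000 nt, 206 over 100000 nt, 1225 with 3 reads in each count and 761 with 10. The ratio to the other junctions, 0.770 as a mean of both counts, was 0.708 against the mean of the others, 0.385 against the highest and 0.7045 with at least 10 others. The share of first introns, 46.4%, was 34.7% in the transcript with most exons and 44.0% with 10 reads. The median host level, 3.10 TPM, was 1.01 RPKM in the mm9 table, a different unit and annotation. Lineage host genes numbered 35 over 100000 nt, against 100. Members called between the counts ranged from 133 with at least 50 reads to 208 with total reads as depth, and 179 with DESeq2 size factors. The causes of these shifts were not tested, except that stricter limits leave fewer introns by construction.

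Leaving out the first or second count gave 1085 and 1374 members, median reads of 21 and 39, and ratios of 0.770 and 0.769. Leaving out a library gave 2.79 and 3.41 TPM. No paired analysis was possible because the series has 1 group. Depth limits the weakest members, 58 of which have 5 reads in the lower count, and contigs carry no replicate values.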

Other observations

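Other genes lie inside the members. In the annotation 287 members enclosed 370 whole genes, 128 on the strand of the host and 242 on the opposite strand, and 34 of them were protein-coding. Of the 337 with a TPM value, 13 were at 1 TPM or above in both libraries, 7 of these protein-coding.

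Selenbp2, a selenium-binding protein, had 19.2 and 20.5 TPM and lies opposite to the strand of Cgn, cingulin of tight junctions. Pelo, a ribosome rescue factor, had 18.5 and 14.6 TPM inside an intron of Itga1, integrin alpha 1, on the same strand. Fam122a, within Pip5k1b, had 14.3 and 12.8 TPM on the same strand. Gpr146, a G protein-coupled receptor, had 14.0 and 14.5 TPM opposite to its host. Angptl2, an angiopoietin-like secreted protein, had 1.70 and 1.91 TPM within Ralgps1. The processed pseudogene Gm7336 within Fam168a was listed at 28.7 and 70.1 TPM. Processed pseudogenes share sequence with their parent genes, so their values are uncertain.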
